A study of Mus musculus with 38 samples.

Results

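The immediate early genes described here are Fos, Fosb, Junb, Egr1, Egr2, Egr4, Npas4, Nr4a1, Arc and Dusp1, 10 of the 48709 genes counted in each mouse, chosen by name as activity-induced genes and found through their Ensembl identifiers. All 10 were counted in 38 of 38 mice and all passed the filter on low counts in every comparison. RNA came from the hippocampus of C57BL/6 wild-type (WT) mice and of APPPS1ΔE9 mice (APPdelta9 in the labels), which carry mutant APP and PS1 transgenes and deposit amyloid in the brain. Each mouse received dry food pellets with anle138b, a small molecule that modulates protein aggregation, or placebo pellets. The pre-plaque group received the pellets between the ages of 2 and 6 months and held 8 WT mice, 4 on placebo and 4 on anle138b, and 8 APPPS1ΔE9 mice, likewise 4 on each chow. The post-plaque group received them between 6 and 10 months and held 10 WT mice, 5 on each chow, and 12 APPPS1ΔE9 mice, 5 on placebo and 7 on anle138b. Replicates were separate mice with 1 library each, and total counts were between 15847985 and 31895808 (median 24530658).

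A few labels and technical features bear on the comparisons below. The 4 placebo-treated WT libraries of 6 months carry WT in their titles and the transgenic genotype in another label. Their App level was between 1623 and 1799 CPM (reads of the gene scaled to the size of the library), within the 1522 to 1799 CPM of all WT mice and under the 3274 to 4286 CPM of the APPPS1ΔE9 mice, and they were used as WT. The methods of the study give the mice as male, but 12 libraries, 11 of 18 WT and 1 of 20 APPPS1ΔE9, had high Xist and no Y-linked expression above 1.89 CPM. Sequencing lane went nearly with group, so that lane and genotype cannot be told apart in most comparisons. The choroid plexus markers summed to between 32.8 and 7881 CPM per mouse, so the libraries differed widely in RNA of that tissue. Oligodendrocyte markers summed to between 1955 and 6121 CPM and thalamus markers to between 47.4 and 162 CPM. The time between the last handling or behavioural test of a mouse and the collection of its hippocampus is not given in the sources used here.

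Immediate early genes are transcribed within minutes of a stimulus, without new protein synthesis, when calcium entry and MAP kinase signalling activate transcription factors such as CREB and SRF that are already bound to their promoters. In the hippocampus they are used as markers of recent neuronal activity, since exploration, learning and seizures raise them briefly and their mRNAs decay quickly. Fos, Fosb and Junb encode subunits of the AP-1 transcription factor, and Egr1, Egr2 and Egr4 encode zinc finger transcription factors. Npas4 encodes an activity-dependent transcription factor of neurons, Nr4a1 an orphan nuclear receptor, Arc a postsynaptic protein that promotes endocytosis of AMPA receptors, and Dusp1 a phosphatase that switches off MAP kinases. In RNA from whole tissue, more cells that transcribe a gene and more RNA of it per cell cannot be told apart.

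The sequences before the transcription starts are shown because the members are defined by a shared mode of induction and, as described below, their levels moved together from mouse to mouse. RefSeq entries on GRCm38.p6 gave the 250 bases before 12 annotated starts of 8 members, and Arc and Egr1 are named only. Searched on both strands were the cAMP response element (CRE) TGACGTCA, its short core CGTCA, the AP-1 site TGACTCA or TGAGTCA, the EGR site GCGTGGGCG, the TATA box TATAAA, the E-box CACGTG and the CArG box by which SRF binds. A whole CRE holds the short core on both strands and was counted for both motifs. The motifs found stand in capitals. Fos (chr12:85473640-85473889, plus strand), Npas4 (chr19:4989972-4990221, minus strand), Nr4a1 (chr15:101266596-101266845, plus strand) and Dusp1 (chr17:26508473-26508722, minus strand) stand for the AP-1 subunit, the neuronal factor, the nuclear receptor and the phosphatase. For Egr2 a stretch of 30 bases (chr10:67537793-67537822, plus strand) holds a CArG box and a short core side by side.
Fos: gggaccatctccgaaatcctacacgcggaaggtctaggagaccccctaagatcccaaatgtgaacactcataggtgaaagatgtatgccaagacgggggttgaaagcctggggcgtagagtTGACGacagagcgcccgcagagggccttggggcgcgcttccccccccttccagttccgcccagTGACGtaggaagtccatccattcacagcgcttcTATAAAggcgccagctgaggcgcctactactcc
Npas4: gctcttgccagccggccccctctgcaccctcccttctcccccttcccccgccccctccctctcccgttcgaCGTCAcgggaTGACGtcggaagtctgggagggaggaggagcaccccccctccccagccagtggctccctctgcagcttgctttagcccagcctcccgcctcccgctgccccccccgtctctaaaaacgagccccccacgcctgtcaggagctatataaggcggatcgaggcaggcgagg
Nr4a1: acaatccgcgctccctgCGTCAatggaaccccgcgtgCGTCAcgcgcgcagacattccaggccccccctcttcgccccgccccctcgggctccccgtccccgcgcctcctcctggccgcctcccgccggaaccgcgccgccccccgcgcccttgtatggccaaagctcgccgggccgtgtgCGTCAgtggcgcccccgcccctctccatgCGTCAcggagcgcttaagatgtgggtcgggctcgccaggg
Dusp1: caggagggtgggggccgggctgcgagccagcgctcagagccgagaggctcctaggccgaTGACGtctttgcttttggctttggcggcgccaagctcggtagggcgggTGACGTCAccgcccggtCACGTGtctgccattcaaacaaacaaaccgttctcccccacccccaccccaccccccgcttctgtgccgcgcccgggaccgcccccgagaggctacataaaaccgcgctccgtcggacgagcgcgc
Egr2: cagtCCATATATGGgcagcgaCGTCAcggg

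The short core CGTCA was found in 10 of the 12 windows, and 2 or more times in 8 of them. Of all 32841 windows of the same length, 17.8% held it and 3.90% held it 2 or more times. Egr2 has 5 of the 12 windows, which partly overlap, and 2 of these held no core. Its other windows hold the same 2 cores, which are thus counted more than once. Counted by gene, each of the 8 members held the core in at least 1 window, and 6 of 8 held it 2 or more times in a window. The shares of all windows are per window and not per gene. They were not matched for the share of G and C bases, which was 54 to 74.4% in the 12 windows. In Fos the cores lay 129 to 125 and 66 to 62 bases before the start and the TATA box 33 to 28 bases before it. Nr4a1 held 4 cores, and Npas4 held 2 on opposite strands between 179 and 165 bases before its start. The whole CRE was found in Dusp1 alone, 143 to 136 bases before the start, against 1.55% of all windows. The CArG box was found in 4 windows, all of Egr2 and partly the same box in overlapping windows (1.47% of all windows). The E-box was found in Egr2 and Dusp1 (6.02%). The TATA box in these letters was found in Fos alone (12.4%), and neither the AP-1 site (4.46%) nor the EGR site (0.536%) was found in any of the 8. These matches describe letters in the windows and do not show that a factor bound there.

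Per kilobase of exon, Arc was the most abundant member, with 28.9 CPM per kb on average over all 38 mice, followed by Egr1 with 16.99 CPM per kb and Nr4a1 with 13.4 CPM per kb. Junb followed with 7.94, Dusp1 with 3.71, Fos with 2.91, Egr4 with 2.16, Npas4 with 1.88 and Fosb with 1.12 CPM per kb, and Egr2 was the scarcest with 0.504 CPM per kb. Arc was counted with 872 to 5691 reads and Egr1 with 776 to 3905 reads in a mouse, whereas Egr2 had 4 to 187 reads, so that its lowest values rest on few reads. The levels differed widely between mice. The highest mouse exceeded the lowest 44.0-fold for Egr2, 17.7-fold for Fos, 8.05-fold for Npas4 and 5.11-fold for Arc, but 2.57-fold for Dusp1 (all over 38 mice). Junb overlaps Prdx2 on the opposite strand, and Dusp1 overlaps Ergic1 and the pseudogene Gm8225. Whether the counting used strand is not given in the sources used here, and reads of these overlaps cannot be assigned with certainty.

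**Figure D1:**
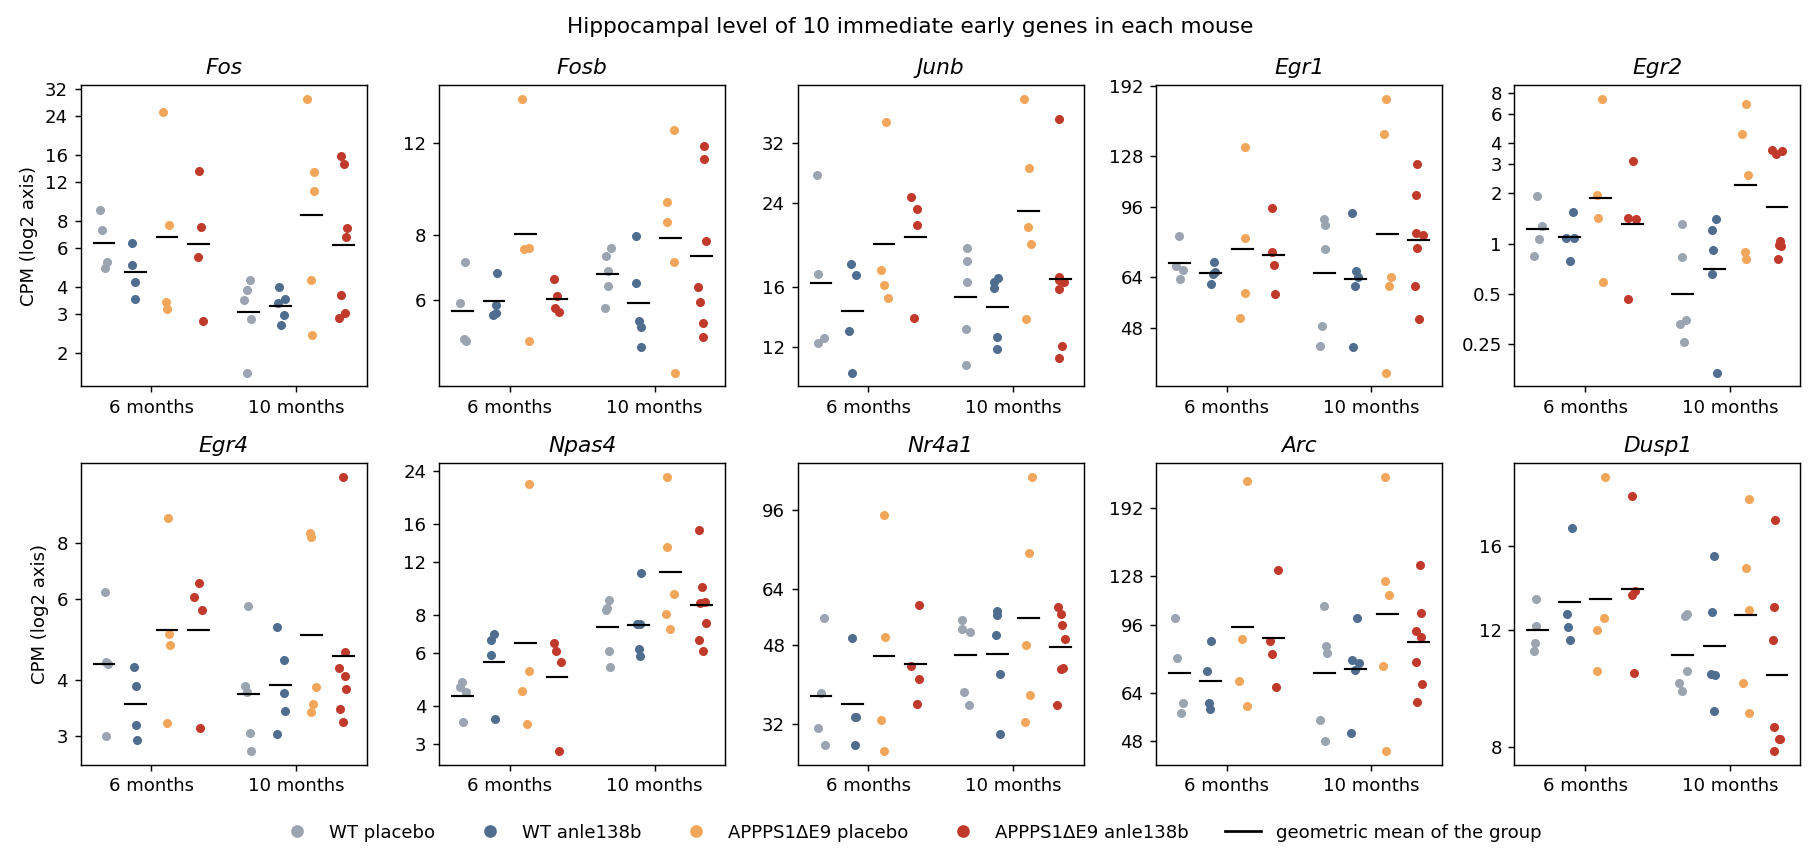
Level of each of the 10 immediate early genes (CPM, log2 axis, scaled per gene) in each of the 38 mice, by age, genotype and chow, with 1 point per mouse and a line at the geometric mean of the group. The APPPS1ΔE9 points of Fos and Egr2 reach from the WT range up to 28.8 and 7.41 CPM, and the groups overlap for every gene.

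For Fos, 7 of the 12 APPPS1ΔE9 mice of 10 months were above the highest of the 10 WT mice of that age. In replicate order, Fos was at 3.87, 4.32, 2.85, 1.63 and 3.49 CPM in placebo-treated WT mice and at 3.53, 3.36, 3.99, 2.995 and 2.69 CPM in anle138b-treated WT mice of 10 months. It was at 2.43, 13.3, 28.8, 10.9 and 4.30 CPM in placebo-treated and at 2.90, 3.04, 7.40, 15.7, 14.4, 3.68 and 6.77 CPM in anle138b-treated APPPS1ΔE9 mice of that age. The genotypes overlapped, with 5 APPPS1ΔE9 mice inside the narrow WT range and 7 above it, 3 on placebo and 4 on anle138b. At 6 months Fos was at 8.92, 7.26, 5.18 and 4.87 CPM in placebo-treated WT mice and at 5.06, 4.21, 3.54 and 6.33 CPM in anle138b-treated WT mice. It was at 7.63, 25.04, 3.40 and 3.17 CPM in placebo-treated and at 5.47, 13.4, 7.49 and 2.80 CPM in anle138b-treated APPPS1ΔE9 mice of 6 months. Here 2 of 8 APPPS1ΔE9 mice were above all 8 WT mice and 3 were below all of them.

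Egr2 showed the same layout at a lower level, with 6 of 12 APPPS1ΔE9 mice of 10 months above all WT mice of that age. It was at 1.31, 0.350, 0.328, 0.257 and 0.831 CPM in placebo-treated and at 1.22, 1.41, 0.660, 0.919 and 0.168 CPM in anle138b-treated WT mice of 10 months. APPPS1ΔE9 mice of that age had 0.809, 2.57, 6.89, 4.53 and 0.893 CPM on placebo and 0.966, 0.805, 3.59, 3.63, 3.47, 1.04 and 0.978 CPM on anle138b. The 6 high mice, 3 on each chow, stood at 2.57 CPM or more, and the other 6 lay within the WT range. At 6 months Egr2 was at 0.840, 1.94, 1.07 and 1.27 CPM in placebo-treated and at 1.09, 1.08, 0.787 and 1.55 CPM in anle138b-treated WT mice. In APPPS1ΔE9 mice of 6 months it was at 1.97, 7.41, 1.42 and 0.589 CPM on placebo and at 1.40, 3.14, 1.43 and 0.467 CPM on anle138b. There 3 of 8 APPPS1ΔE9 mice were above all WT mice and 2 were below all of them.

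The other AP-1 subunits varied less. Fosb was between 4.87 and 7.95 CPM in all 18 WT mice, while placebo-treated APPPS1ΔE9 mice averaged 8.67 ± 4.14 CPM (SD, n = 4) at 6 months and 8.37 ± 3.07 CPM (SD, n = 5) at 10 months. In anle138b-treated APPPS1ΔE9 mice Fosb averaged 6.04 ± 0.396 CPM (SD, n = 4) and 7.66 ± 2.78 CPM (SD, n = 7) at these ages. Fosb was thus above all WT mice of the same age in 3 of 8 APPPS1ΔE9 mice of 6 months, all on placebo, and in 5 of 12 of 10 months. Junb averaged 17.3 ± 7.07 and 14.6 ± 3.41 CPM in placebo- and anle138b-treated WT mice of 6 months (SD, n = 4 each), and 21.002 ± 9.57 and 20.8 ± 4.87 CPM in the APPPS1ΔE9 mice. At 10 months Junb averaged 15.6 ± 3.47 and 14.7 ± 2.28 CPM in placebo- and anle138b-treated WT mice (SD, n = 5 each), 24.6 ± 9.87 CPM in placebo-treated (n = 5) and 17.9 ± 8.22 CPM in anle138b-treated APPPS1ΔE9 mice (n = 7). Of the 12 APPPS1ΔE9 mice of 10 months 5 exceeded all WT mice for Junb, 4 of them on placebo.

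Among the zinc finger factors besides Egr2, Egr1 was the most abundant. It averaged 69.8 ± 7.71 and 65.8 ± 3.45 CPM in placebo- and anle138b-treated WT mice of 6 months (SD, n = 4 each), and 81.2 ± 38.2 and 74.0 ± 15.5 CPM in the APPPS1ΔE9 mice. At 10 months it averaged 68.5 ± 21.5 and 65.5 ± 17.9 CPM in placebo- and anle138b-treated WT mice (SD, n = 5 each), 97.1 ± 61.0 CPM in placebo-treated (n = 5) and 82.4 ± 24.3 CPM in anle138b-treated APPPS1ΔE9 mice (n = 7). The group means thus differed by less than the SD of the placebo-treated APPPS1ΔE9 mice, in which Egr1 reached 135 CPM at 6 months and 178 CPM at 10 months. Egr4 averaged 4.48 ± 1.33 and 3.57 ± 0.605 CPM in placebo- and anle138b-treated WT mice of 6 months (SD, n = 4 each), and 5.53 ± 2.50 and 5.35 ± 1.52 CPM in the APPPS1ΔE9 mice. At 10 months the corresponding Egr4 levels were 3.85 ± 1.18 and 3.96 ± 0.868 CPM in WT mice and 5.48 ± 2.59 and 4.93 ± 2.78 CPM in APPPS1ΔE9 mice. For both genes the APPPS1ΔE9 mice overlapped the WT mice at each age.

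Npas4, the most neuron-restricted factor of the 10, was at 4.798, 3.55, 4.60 and 4.46 CPM in placebo-treated and at 6.61, 6.94, 5.90 and 3.62 CPM in anle138b-treated WT mice of 6 months. The APPPS1ΔE9 mice of 6 months had 5.21, 21.6, 4.48 and 3.49 CPM on placebo and 5.58, 6.47, 6.09 and 2.84 CPM on anle138b, so that a single mouse stood apart. At 10 months it was at 5.36, 8.44, 8.98, 6.08 and 8.31 CPM in placebo-treated and at 7.46, 5.87, 10.99, 6.19 and 7.45 CPM in anle138b-treated WT mice. APPPS1ΔE9 mice of that age had 7.20, 9.37, 22.9, 13.4 and 8.04 CPM on placebo and 8.86, 7.52, 6.62, 8.78, 15.3, 6.09 and 9.86 CPM on anle138b. Of these 12 mice 3 were above all WT mice and none was below them. Nr4a1 averaged 38.2 ± 11.9 and 36.2 ± 9.32 CPM in placebo- and anle138b-treated WT mice of 6 months (SD, n = 4 each), and 50.9 ± 29.8 and 44.4 ± 10.2 CPM in the APPPS1ΔE9 mice. At 10 months it averaged 46.2 ± 9.02 and 47.1 ± 11.2 CPM in WT mice, 61.6 ± 33.9 CPM in placebo-treated and 48.3 ± 8.46 CPM in anle138b-treated APPPS1ΔE9 mice, which all overlapped.

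Arc, the synaptic effector, was at 99.6, 56.8, 60.1 and 78.8 CPM in placebo-treated and at 73.1, 58.1, 60.4 and 87.0 CPM in anle138b-treated WT mice of 6 months. In APPPS1ΔE9 mice of 6 months it was at 87.9, 225, 68.7 and 59.1 CPM on placebo and at 87.3, 133, 80.7 and 66.2 CPM on anle138b, with 2 of 8 above all WT mice. At 10 months Arc averaged 75.1 ± 23.99 CPM in placebo-treated and 75.5 ± 17.5 CPM in anle138b-treated WT mice (SD, n = 5 each). It averaged 118 ± 70.8 CPM in placebo-treated (n = 5) and 89.5 ± 25.5 CPM in anle138b-treated APPPS1ΔE9 mice (n = 7), of which 4 of 12 were above all WT mice. Dusp1, the phosphatase, was the steadiest member. Its group means were between 10.7 ± 3.58 CPM (SD, n = 7) in anle138b-treated APPPS1ΔE9 mice of 10 months and 14.2 ± 3.61 CPM (SD, n = 4) in those of 6 months. Of the 12 APPPS1ΔE9 mice of 10 months 2 were above and 5 were below all WT mice for Dusp1.

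High values of the 10 genes fell in the same mice. As a summary, the log2 CPM of each gene was averaged over the 10 genes in each mouse and set against the mean of the WT mice. Placebo-treated APPPS1ΔE9 replicate 3 of 10 months stood 1.64 log2 units above the WT mean and replicate 2 of 6 months 1.58 above it. In both, 10 of 10 genes were above every WT mouse of the same age, and together they held the highest value of all 38 mice for 9 of the 10 genes. The next were placebo-treated APPPS1ΔE9 replicate 4 of 10 months, 0.98 above the WT mean with 9 of 10 genes above all WT mice, and anle138b-treated APPPS1ΔE9 replicate 5 of 10 months, 0.85 above it with 7 genes. All 18 WT mice lay between -0.46 and 0.39. Both of the highest libraries lay within the range of the other 36 mice for the summed markers of 11 of 12 cell types and regions, the exception being the endothelial markers, at 129 CPM in replicate 3 of 10 months against at most 127 CPM in the other mice.

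**Figure D2:**
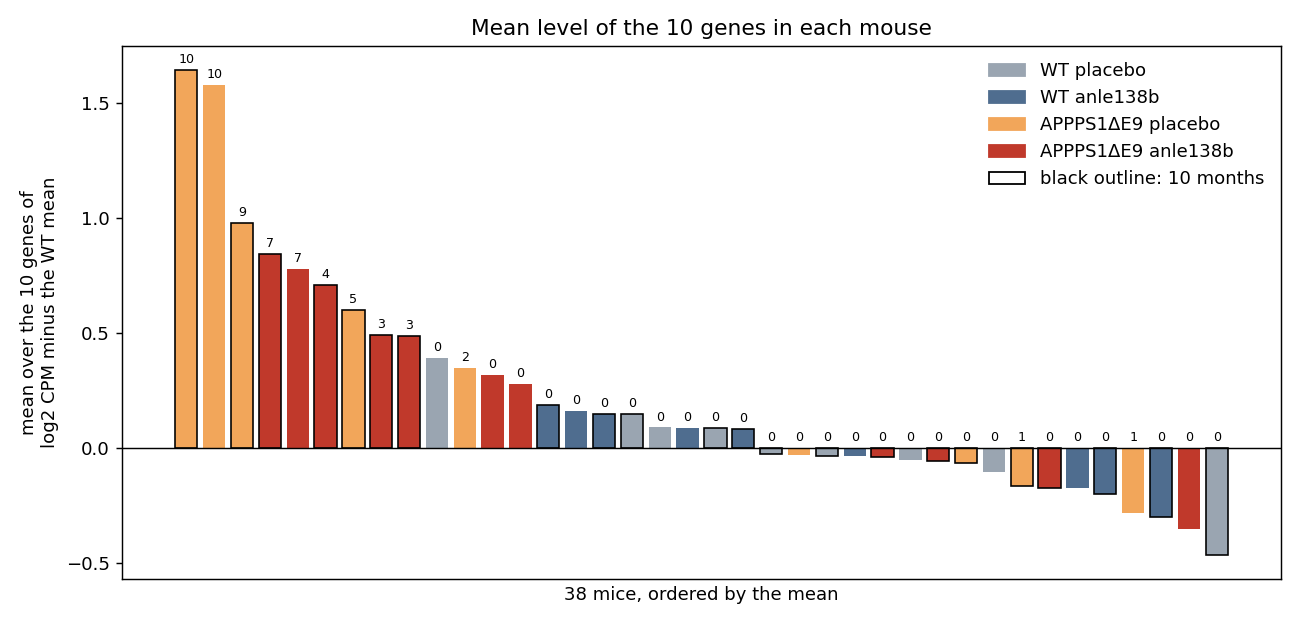
Mean over the 10 immediate early genes of log2 CPM minus the WT mean in each of the 38 mice, ordered by that mean and coloured by genotype and chow, with black outlines for mice of 10 months. The number at each bar is how many of the 10 genes lie above every WT mouse of the same age, which is 10 in both of the highest mice, at 1.64 and 1.58, while the WT mice lie between -0.46 and 0.39.

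To ask whether genotype changed the level of these genes, APPPS1ΔE9 and WT mice were compared on each chow at each age with edgeR's quasi-likelihood test, counting as called a Benjamini-Hochberg adjusted p under 0.1 over all genes tested. None of the 10 was called in any of these 4 comparisons, in which 0.0715% (6 months, placebo), 0.047% (6 months, anle138b), 0.324% (10 months, placebo) and 0.723% (10 months, anle138b) of all genes were called. At 10 months on placebo all 10 genes were higher in APPPS1ΔE9 mice, with a median log2 fold change of 0.57 against -0.0025 over all genes. Unadjusted p was under 0.05 for 4 of the 10, against 4.1% of all genes. These were Egr2 (log2 fold change 2.41, SE 0.69, adjusted p = 0.518), Fos (1.88, SE 0.60, adjusted p = 0.687), Junb (0.65, SE 0.27, adjusted p = 0.99997) and Npas4 (0.70, SE 0.31, adjusted p = 0.99997). With DESeq2 in place of edgeR, Egr2 was called in this comparison (2.37, SE 0.63, adjusted p = 0.0303), as were 0.636% of all genes.

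On anle138b at 10 months 9 of 10 genes were higher in APPPS1ΔE9 mice, with a median log2 fold change of 0.30. Unadjusted p was under 0.05 for 2 genes, Fos (1.21, SE 0.44, adjusted p = 0.704) and Egr2 (1.22, SE 0.54, adjusted p = 0.838), against 5.78% of all genes. At 6 months on placebo all 10 were higher, with a median of 0.50, but the spread within the placebo-treated APPPS1ΔE9 mice was wide. There 0 of 10 had an unadjusted p under 0.05 with edgeR, against 11.1% of all genes by edgeR. With DESeq2 it was 1 of 10, for which no share of all genes is given. At 6 months on anle138b 9 of 10 were higher, with a median of 0.35, and Egr4 alone had an unadjusted p under 0.05 (0.59, SE 0.22, adjusted p = 0.836), against 5.64% of all genes. For each of the 10 genes the values of the genotypes overlapped in all 4 comparisons.

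In the fit of all 38 mice, which averages the genotype difference over both chows and both ages, Egr2 was higher in APPPS1ΔE9 mice (log2 fold change 1.33, SE 0.34, 2.52-fold, adjusted p = 0.0392), and so was Fos (1.07, SE 0.29, 2.11-fold, adjusted p = 0.0731). These 2 of 10 were called, against 1.46% of all 18232 genes tested, and DESeq2 called the same number (Egr2 with an adjusted p of 0.00445 and Fos of 0.0184), against 1.63% of genes. All 10 had positive log2 fold changes, from 0.11 for Dusp1 to 1.33 for Egr2, with a median of 0.43 against -0.0040 over all genes. Unadjusted p was under 0.05 for 7 of 10, against 8.91% of all genes, which besides the called genes were Arc (0.47, SE 0.18, adjusted p = 0.364), Npas4 (0.46, SE 0.19, adjusted p = 0.443), Junb (0.43, SE 0.15, adjusted p = 0.288), Egr4 (0.43, SE 0.17, adjusted p = 0.391) and Fosb (0.32, SE 0.13, adjusted p = 0.41). Egr1 (0.30, SE 0.16), Nr4a1 (0.29, SE 0.15) and Dusp1 (0.11, SE 0.11) did not reach that level. The levels of the 10 genes moved together from mouse to mouse, so these counts are not of independent genes.

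**Figure D3:**
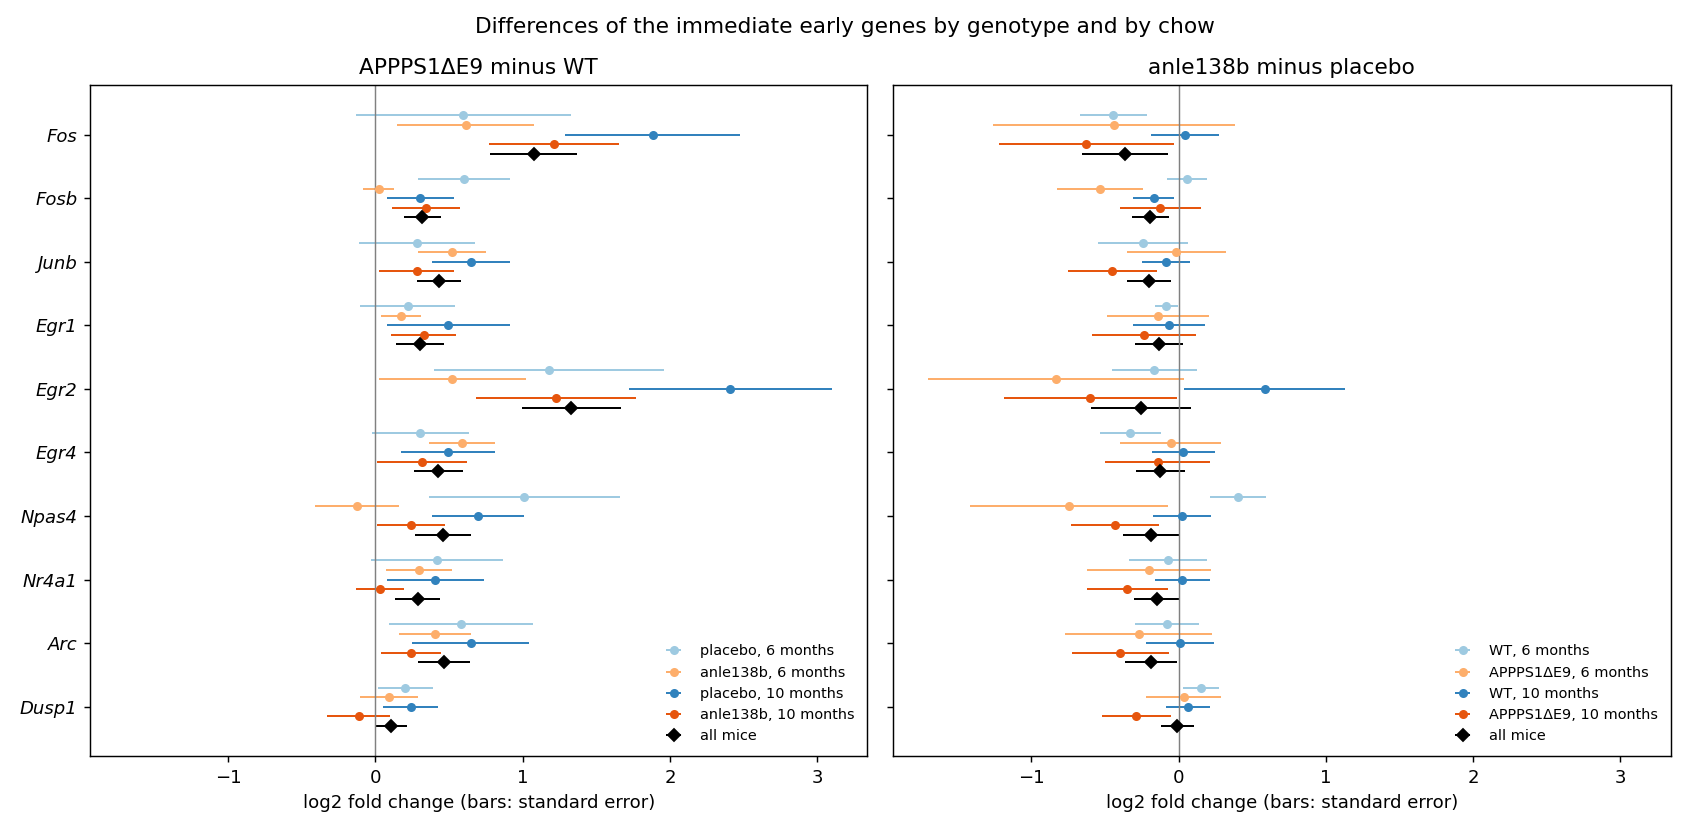
Log2 fold changes of the 10 immediate early genes for genotype (left, APPPS1ΔE9 against WT) and chow (right, anle138b against placebo) from edgeR, with bars of 1 SE, in the 4 single comparisons of each and over all mice (black). For genotype over all mice all 10 points lie above 0 and Egr2 and Fos reach 1.33 and 1.07, whereas for chow over all mice all 10 lie between -0.37 and -0.01.

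Both calls depended on single libraries. The 2 highest placebo-treated APPPS1ΔE9 mice were picked by their values of these same genes. Leaving them out was thus bound to lower the differences. Without these 2 mice, Fos was at 0.65 (adjusted p = 0.434) and Egr2 at 0.92 (adjusted p = 0.267), and 0 of 10 genes were called while 233 of 18423 genes were. Of the 10, only Fos and Egr2 then kept an unadjusted p under 0.05 with edgeR, against 7.34% of all genes. Arc fell to 0.21, Npas4 to 0.12, Junb to 0.28, Egr4 to 0.28 and Fosb to 0.17. Egr2 lost its call without placebo-treated APPPS1ΔE9 replicate 2 of 6 months (adjusted p = 0.155) and without anle138b-treated APPPS1ΔE9 replicate 2 of 6 months (adjusted p = 0.107). Fos lost its call when any of 15 mice was left out, with adjusted p between 0.1006 and 0.261 and log2 fold changes between 0.81 and 1.15 over all 38 leave-outs. These were, of APPPS1ΔE9 mice, placebo-treated replicates 2 of 6 months and 3 of 10 months and anle138b-treated replicates 2 and 3 of 6 months and 4 and 5 of 10 months. Of WT mice they were placebo-treated replicates 2, 3 and 4 of 6 months and 3 and 4 of 10 months, and anle138b-treated replicates 2 and 3 of 6 months and 4 and 5 of 10 months. With Y-linked expression as a covariate neither was called (Egr2 at 1.38 with an adjusted p of 0.146, Fos at 1.08 with 0.280). Neither was called in the 26 mice with Y-linked expression alone, of which 7 were WT. There Egr2 was at 1.27 (SE 0.55) and Fos at 1.16 (SE 0.53), with larger SE than in all 38 mice, and 0.699% of all genes were called.

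The genotype differences of Fos and Egr2 were larger at 10 than at 6 months, but the test of that difference did not call either. Over both chows, Fos was at 1.55 (SE 0.38, adjusted p = 0.0549) and Egr2 at 1.82 (SE 0.46, adjusted p = 0.0585) at 10 months, 2 of 10 called against 1.43% of all genes. At 6 months they were at 0.60 (adjusted p = 0.634) and 0.84 (adjusted p = 0.541). The difference between ages was 0.95 for Fos (SE 0.58, adjusted p = 0.779) and 0.97 for Egr2 (SE 0.67, adjusted p = 0.812). For this difference 0 of 10 genes were called with edgeR, against 0.176% of all genes, and 0 of 10 had an unadjusted p under 0.05, against 7.42%.

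To ask whether anle138b changed these genes, anle138b- and placebo-treated mice of the same genotype and age were compared. In APPPS1ΔE9 mice of 10 months all 10 genes were lower on anle138b, with log2 fold changes from -0.63 for Fos to -0.12 for Fosb and a median of -0.37, against 0.0038 over all genes. In those of 6 months 9 of 10 were lower, with a median of -0.24, Egr2 at -0.83 (SE 0.87) and Npas4 at -0.74 (SE 0.67). The groups overlapped for every gene. No gene of the 10 was called in either comparison, against 0.0529% of all genes at 6 months and 0% at 10 months. With edgeR 0 of 10 had an unadjusted p under 0.05, against 13.1% and 1.48% of all genes by edgeR. With DESeq2 it was 1 of 10 at 6 months and 0 of 10 at 10 months, for which no share of all genes is given.

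In WT mice the directions were mixed. At 6 months 3 genes were higher and 7 lower on anle138b, from -0.44 for Fos (SE 0.23) to 0.40 for Npas4 (SE 0.19), and at 10 months 7 were higher and 3 lower, from -0.17 for Fosb (SE 0.14) to 0.58 for Egr2 (SE 0.55). By edgeR and DESeq2 alike, 0 of 10 were called and 0 of 10 had an unadjusted p under 0.05 at either age. Of all genes 0% were called by edgeR at both ages, and 1.85% and 1.25% had an unadjusted p under 0.05. Over all 38 mice all 10 genes had negative log2 fold changes, from -0.37 for Fos (SE 0.29) to -0.01 for Dusp1 (SE 0.11), with a median of -0.19. None was called and none had an unadjusted p under 0.05 with edgeR or DESeq2, against 0% and 4.81% of all genes by edgeR.

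Whether the effect of anle138b differed between genotypes was tested as an interaction. At 10 months 9 of 10 interaction terms were negative, from -1.18 for Egr2 (SE 0.91) to 0.04 for Fosb (SE 0.34), with Fos at -0.67 (SE 0.75). At 6 months 7 of 10 were negative, from -1.13 for Npas4 (SE 0.72) to 0.29 for Egr4 (SE 0.42). At both ages 0 of 10 were called and 0 of 10 had an unadjusted p under 0.05 with edgeR or DESeq2. Of all genes 0% were called by edgeR at both ages, and 7.99% (6 months) and 2.3% (10 months) had an unadjusted p under 0.05. The comparisons share mice with those of genotype and chow above, so their directions are not independent of them.

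Between the ages, which were also separate cohorts of mice, so that age and cohort cannot be told apart, Npas4 was higher at 10 months (log2 fold change 0.61, SE 0.19, adjusted p = 0.00802). It averaged 4.35 ± 0.553 CPM in placebo-treated WT mice of 6 months (SD, n = 4) and 7.43 ± 1.60 CPM in those of 10 months (n = 5). This was the only gene of the 10 called, against 61.8% of all genes by edgeR and 61.5% by DESeq2, and the only one with an unadjusted p under 0.05, against 60.0% of genes. The other 9 lay between -0.31 for Fos (SE 0.29) and 0.26 for Nr4a1 (SE 0.15), 5 lower and 4 higher at 10 months. The Npas4 difference was between 0.52 and 0.86 with each mouse left out in turn and stayed called each time. A second gene was also called without any of 10 mice, and both Fosb (0.23) and Nr4a1 (0.39) without placebo-treated APPPS1ΔE9 replicate 2 of 6 months. Nr4a1 was called, at 0.30 to 0.32, without placebo-treated APPPS1ΔE9 replicates 1 or 5 of 10 months, anle138b-treated APPPS1ΔE9 replicate 2, anle138b-treated WT replicate 4 or placebo-treated WT replicate 1 of 6 months. Dusp1 was called, at -0.24 to -0.23, without anle138b-treated APPPS1ΔE9 replicate 4, placebo-treated APPPS1ΔE9 replicate 3 or anle138b-treated WT replicate 1 of 10 months, or without replicate 4 of either APPPS1ΔE9 group of 6 months.

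The spread between mice was a feature of all 10 genes. The SD of log2 CPM within groups, pooled over the 8 groups, was 1.01 for Egr2 and 0.90 for Fos, larger than that of 98.7% and 98.0% of the 18232 genes tested, whose median was 0.19. It was 0.56 for Npas4, 0.54 for Arc, 0.51 for Egr1, 0.50 for Egr4, 0.47 for Nr4a1, 0.46 for Junb, 0.39 for Fosb and 0.34 for Dusp1, the last larger than that of 71.9% of genes. As the biological coefficient of variation of edgeR, which leaves out counting error, Egr2 varied by 65.2%, Fos by 57.3% and Dusp1 by 23.02%, against a median of 11.7%. The dispersions were 1.60 times (Fosb) to 9.46 times (Arc) that of genes of like abundance.

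Within WT mice the SD of Fos was 0.40 on the log2 scale and within APPPS1ΔE9 mice 1.17. All 10 genes had a higher SD in APPPS1ΔE9 than in WT mice, against 48.9% of all genes, for example 0.21 and 0.50 for Fosb, 0.33 and 0.70 for Npas4, 0.38 and 0.65 for Arc, and 0.77 and 1.18 for Egr2 (WT first). When the absolute deviations from the group means were compared with limma, Fos deviated more in APPPS1ΔE9 mice (1.01 against 0.33 log2 units, difference 0.69, SE 0.15, adjusted p = 0.0786). It was the only member called, against 0.0658% of all genes, and 7 of 10 had an unadjusted p under 0.05, all with larger deviations in APPPS1ΔE9 mice, against 9.38% of all genes. Of the other 11 called genes, 1700016P03Rik also deviated more in APPPS1ΔE9 mice (0.54, SE 0.11), and several, such as Xist, Ddx3y and Uty, are sex-linked. Deviations from a group mean are not independent of each other, and on simulated, normally distributed values this test called more false genes than its threshold implies. The deviations of the 10 genes also went together across mice, and both of the highest mice were APPPS1ΔE9 mice. The 10 of 10 and 7 of 10 are thus not counts of independent genes.

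The call for Fos was lost with deviations from group medians (difference 0.68, adjusted p = 0.999), with Y-linked expression as a covariate (0.64, adjusted p = 0.396), and within each age or chow alone (0.60 to 0.79, adjusted p between 0.341 and 0.591). It was held without the 2 highest placebo-treated APPPS1ΔE9 mice (adjusted p = 0.0950) and in the mice with Y-linked expression alone (adjusted p = 0.0867). It was lost in 20 of 38 fits that left out a mouse, where the difference was between 0.59 and 0.76 and adjusted p between 0.0192 and 0.193. Of APPPS1ΔE9 mice these were placebo-treated replicates 2 of 6 months and 1 and 5 of 10 months, and anle138b-treated replicates 4 of 6 months and 1, 2, 5 and 6 of 10 months. Of WT mice they were placebo-treated replicates 2 and 3 of 6 months and 1, 2, 3 and 5 of 10 months, and anle138b-treated replicates 1 and 2 of 6 months and 1, 2, 3 and 4 of 10 months.

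Between chows, 9 of 10 genes had a lower SD in anle138b- than in placebo-treated mice, against 54.8% of all genes, Dusp1 being the exception. Egr1 deviated by 0.25 log2 units on anle138b and by 0.52 on placebo (difference -0.29, SE 0.09, adjusted p = 0.576). Nr4a1 (-0.23, SE 0.08, adjusted p = 0.654) and Arc (-0.28, SE 0.10, adjusted p = 0.654) also had an unadjusted p under 0.05 in limma's test, 3 of 10 against 6.74% of all genes. None of the 10 was called with limma, against 0% of all genes. Both of the highest libraries were on placebo, and the comparison of spread between chows was not repeated without them. The deviations of the 10 genes went together across mice, so these counts are not of independent genes.

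**Figure D4:**
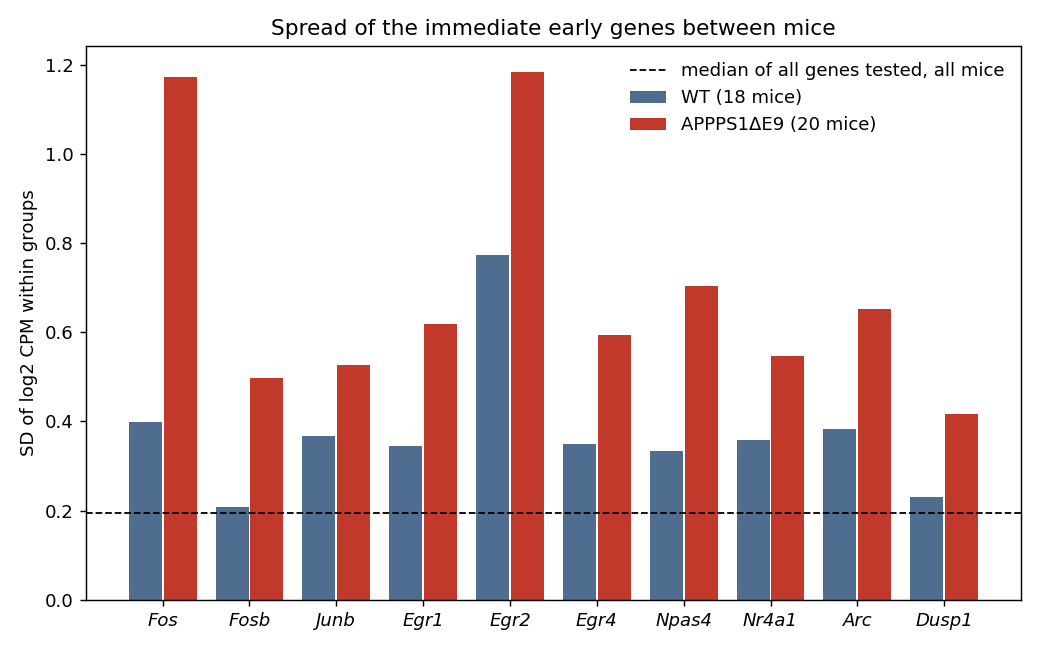
SD of log2 CPM between mice of a group, pooled over the groups of a genotype, for each of the 10 immediate early genes in 18 WT and 20 APPPS1ΔE9 mice. The dashed line is the median of all genes tested over all mice, 0.19, and all 10 genes lie higher in APPPS1ΔE9 mice, Fos at 1.17 against 0.40.

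The deviations of the 10 genes from their group means went together across the 38 mice. The 45 pairs of genes all had a Pearson r above 0, from 0.18 to 0.91 with a median of 0.65 (median Spearman rho 0.56). The closest pairs were Nr4a1 and Arc (r = 0.91), Egr1 and Nr4a1 (0.88), Fos and Arc, Egr1 and Arc, and Junb and Egr4 (each 0.86), and the loosest was Egr1 and Dusp1 (0.18). The points are mice of 8 groups that share lanes, cohorts and dissection. Without the 2 mice farthest from the median of the pair's first gene, the median was 0.58 and all 45 pairs stayed above 0. The median r was 0.78 in the 16 mice of 6 months, 0.57 in the 22 of 10 months, 0.71 in the 20 APPPS1ΔE9 mice and 0.30 in the 18 WT mice, where 32 of 45 pairs were above 0. Without the 2 highest placebo-treated APPPS1ΔE9 mice it was 0.49, with a range from -0.14 to 0.84.

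Each gene was then fitted against all 18231 other genes with limma, to see how many of the other 9 vary with it at an adjusted p under 0.1. All 9 varied with Fos, against 0.422% of all genes, and 6 of them were among the 20 genes closest to it by r, with Arc (0.86) the first. With Nr4a1 varied 8 (0.208% of all genes), with Arc 8 (0.856%), with Junb 6 (1.28%), with Egr4 6 (3.61%), with Fosb 5 (0.576%), with Npas4 5 (0.455%) and with Egr2 4 (0.143%). The shares of all genes were far larger for Egr1, with which 8 of 9 and 28.5% of all genes varied, and for Dusp1, with 7 of 9 and 24.3%. For Nr4a1, 7 of the 9 were among the 20 closest genes, and Arc was the closest to Nr4a1, to Fos and to Npas4.

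**Figure D5:**
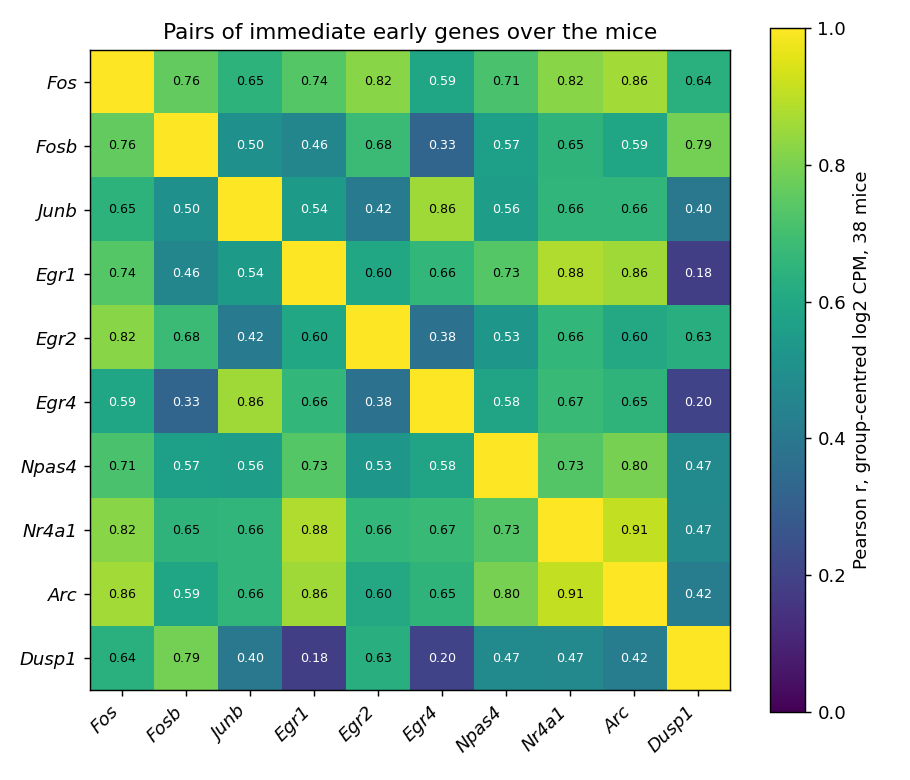
Pearson r of the deviations from the group means (log2 CPM) over the 38 mice for each of the 45 pairs of immediate early genes, as a colour scale from 0 to 1 with the value in each cell. The highest r is that of Nr4a1 and Arc, 0.91, and the lowest values, 0.18 and 0.20, are those of Dusp1 with Egr1 and Egr4.

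The genes outside the 10 with the highest mean r to them over the 38 mice were 1700016P03Rik (mean r 0.63), Tiparp (0.63), Midn (0.59), Dusp5 (0.58), Gcc1 (0.57), Dnase1l2 (0.56), Dusp6 (0.55), Arl5b (0.55), Cdr2l (0.55) and Nr4a3 (0.54). Dusp5 and Dusp6 encode MAP kinase phosphatases and Nr4a3 a nuclear receptor related to Nr4a1. Their genotype differences over all mice were 0.20 for Dusp5 (SE 0.08), 0.15 for Dusp6 (SE 0.08) and 0.13 for Nr4a3 (SE 0.08), none of them called.

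The mean of the 10 genes, after removing group means, was set beside 12 marker sums, the total count and Y-linked expression. It went with the summed astrocyte markers in the opposite direction (r = -0.56, rho = -0.62, n = 38), and r was -0.57 without the 2 mice farthest from the median, -0.53 at 6 months and -0.60 at 10 months. Astrocyte sums ranged from 2828 to 3457 CPM in WT and from 2853 to 3653 CPM in APPPS1ΔE9 mice. The lowest of the latter was that of placebo-treated replicate 3 of 10 months, whose mean after removing group means was 1.05. The highest such mean, 1.18, was that of placebo-treated APPPS1ΔE9 replicate 2 of 6 months, with an astrocyte sum of 3055 CPM. The microglia sum had an r of -0.31 and the other 12 measures lay between -0.08 and 0.14. The mean can hide relations of single genes. WT mice of 10 months with oligodendrocyte sums of 1955 to 3129 CPM had Egr1 at 42.9 to 64.3 CPM. Those with sums of 4138 to 6121 CPM had it at 66.5 to 92.7 CPM. APPPS1ΔE9 mice of that age did not separate so. Their Egr1 was at 75.9 CPM at a sum of 2386 CPM and at 64.1 CPM at 4981 CPM. Relations of single genes to the sums were not tested. All measures share the library with the 10 genes, and their part in the results above was not tested.

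Related genes outside the 10 were compared between genotypes in the same fit over all mice, in which 47.4% of all genes were higher in APPPS1ΔE9 mice and 1.46% were called. Of the 89 genes of 9 lists, 68 were higher and 2 were called, a share not far from that of all genes. For these 89 genes no result is given with Y-linked expression as a covariate or without the 2 highest libraries. Of 8 other AP-1 family genes 6 were higher in APPPS1ΔE9 mice, and Atf3, a stress-induced partner of AP-1 subunits, was called as higher (log2 fold change 0.70, SE 0.15, adjusted p = 0.00813). Egr3 (0.17), Nab2 (0.10) and Nab1 (0.05), a factor of the same family and its corepressors, were not called, nor were Nr4a2 (0.16) and Nr4a3 (0.13). Of 24 other rapid immediate early genes tested 21 were higher, with a median of 0.10, and Zfp36, which promotes mRNA decay, was called as higher (0.25, SE 0.07, adjusted p = 0.0791). None of 12 delayed activity-induced genes, such as Nptx2 (0.26, SE 0.13) and Bdnf (0.05, SE 0.09), was called, 8 higher and 4 lower. Also without a call were 8 MAP kinase phosphatases (4 higher), 20 receptors, kinases and transcription factors upstream (16 higher, median 0.02), 6 heat shock genes (5 higher) and 6 glucocorticoid targets (3 higher).

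Between chows, 0 of the 89 genes were called with edgeR over all mice (0% of all genes), and 3 of 89 had an unadjusted p under 0.05, against 4.81% of all genes. The list medians lay between -0.05 and 0.0004. All 6 glucocorticoid targets, 10 of 12 delayed genes and 16 of 24 other rapid genes were lower on anle138b. In APPPS1ΔE9 mice of 10 months 21 of 24 other rapid genes and 10 of 12 delayed genes were lower on anle138b, with medians of -0.09 and -0.19, and none was called. In placebo-treated mice of 10 months, 5 of 6 glucocorticoid targets had an unadjusted p under 0.05 and were lower in APPPS1ΔE9 mice, against 4.1% of all genes with such a p in either direction (list median -0.32, smallest adjusted p = 0.320). The direction was opposite in placebo-treated mice of 6 months, where all 6 were higher in APPPS1ΔE9 mice (median 0.18). There 2 of 6 had an unadjusted p under 0.05 with edgeR, against 11.1% of all genes. On anle138b 4 were higher and 2 lower at 6 months, and 3 were higher and 3 lower at 10 months.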

How the data were processed

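RNA sequencing data of the hippocampus of 38 mice were used. The authors prepared TruSeq mRNA libraries, aligned the reads by STAR to mm10 and counted per gene in HTSeq. They deposited raw read counts of 48709 genes per mouse. Low counts were removed by filterByExpr (at least 10 counts, and 15 in total), and TMM normalisation preceded the quasi-likelihood test of edgeR 4.0.16 (R 4.3.3). P-values were adjusted by Benjamini-Hochberg over all genes tested, with a threshold of 0.1. SE is the log2 fold change divided by the root of the F value. Pairs of groups were fitted alone, and interactions over the groups of an age. Comparisons over all mice used all 8 groups in 1 fit (18232 genes, 30 residual degrees of freedom). Spread and covariation used log2 CPM (prior count 2), group means removed, and limma 3.58.1. Symbols, coordinates and exon lengths came from GENCODE M21, upstream sequences from RefSeq. Groups were taken from titles, and no mouse was left out. The members and lists were chosen with earlier results of these data known. The genes named outside the 10 are listed genes that were called or belong to a member's family, and those with the highest mean r, and a few list members were named after their values were seen. Replicates carry running numbers, and in 11 of 12 pairs of groups not every same-numbered pair of mice deviated together (r over 0.1), so the numbers were no block in the main fits. This rule cannot exclude a shared source. In most pairs of groups same-numbered mice were more alike on average than others, with a mean r of 0.31 against -0.08 between the WT groups of 10 months. Between the APPPS1ΔE9 groups of 10 months it was -0.22 against 0.04. What the numbers stand for was not tested. Alternatives were DESeq2 1.42.0, RLE size factors, no filter, a threshold of 0.05, lane, Y-linked expression, prior count 0.5 and leaving out mice. Precision is limited by the number of mice and, for Egr2, by counting error. The edgeR tests were checked on simulated counts and the test of spread on simulated, normally distributed values, while the tests of covariation were not checked in this way.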

Additional observations from a re-analysis of the deposited data

Results flagged for a closer look

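Dixon's test over the 8 groups compares the gap of the highest or lowest mouse with the range of its group, and chance marks about 1 in 20 groups. Among 80 combinations of gene and group it marked 3. Junb was at 35.3 CPM in placebo-treated APPPS1ΔE9 replicate 2 of 6 months, with the next mouse of the group at 17.4 CPM. In anle138b-treated APPPS1ΔE9 replicate 7 of 10 months Junb was at 35.8 CPM, with the next mouse at 16.8 CPM, and Egr4 was at 11.2 CPM, with the next at 4.60 CPM. That mouse held the highest Egr4 value of all 38 mice, while its Fos (6.77 CPM) and Egr2 (0.978 CPM) were not the highest of its group.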

How the results depend on the processing

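In the fits of pairs of groups and of interactions, 0 of the 10 genes were called under every setting run, except that DESeq2 called 1 (Egr2) for genotype on placebo at 10 months. DESeq2 gave an adjusted p to 3 of the 10 genes for genotype on placebo and for the interaction at 6 months. For genotype over all mice, 2 genes were called, and 1 with an adjusted p under 0.05, without a filter (Fos at an adjusted p of 0.158) and with the replicate number as a replicate block (Fos at 0.163), which changed no other call. The count was 0 with Y-linked expression as a covariate, and, in settings chosen after seeing the data, without the 2 highest libraries, in mice with Y-linked expression alone and at 6 months alone. Leaving out each mouse gave 0 to 2 genes, and 1 to 3 for age. For spread by genotype, the count of 1 fell to 0 with deviations from the median, with the covariate and at 6 or 10 months or on placebo or anle138b alone, and was 0 to 1 with each mouse left out. The median r of 0.645 became 0.560 as Spearman's rho, 0.775 at 6 and 0.565 at 10 months, 0.491 without the 2 highest libraries, 0.295 in WT and 0.714 in APPPS1ΔE9 mice, and was 0.566 to 0.670 with each mouse left out. No fold change of a gene with an unadjusted p under 0.05 changed direction, but Dusp1 for genotype over all mice went from 0.11 to -0.0014 without the 2 highest libraries, and single pairs of genes turned negative (lowest r -0.14 without these libraries, -0.10 at 10 months and -0.42 in WT mice). A lane term, in a fit of all 4 groups of an age, could be estimated in 4 comparisons only, genotype on placebo at 6 months (through the anle138b-treated WT libraries, which lie in lanes 4 and 5) and chow in WT mice of both ages and APPPS1ΔE9 mice of 10 months, with 0 of the 10 genes called. The causes of these changes were not tested.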
